A study of Mus musculus with 8 samples.

Results

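Accessible chromatin sites that lay between genes and were found in every library were examined in conventional dendritic cells of mouse spleen. There were 6615 such sites, out of 112443 sites in all and 29645 sites with a summit in all 8 libraries. Members were chosen from the deposited lists of summits, the points of highest signal within called ATAC-seq peaks. In each library the 61737 summits with the highest score were kept, and summits of all libraries within 250 bp of each other were chained into 1 site. A member had a summit in all 8 libraries and a midpoint outside every protein-coding gene span of the GRCm38.p6 RefSeq annotation, 1 to 50 kb from the nearest one. The word constitutive therefore means presence in all 8 lists of equal length, and the scores of all libraries chose the members. Score levels are given as a description for that reason.

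The study set out to compare chromatin accessibility between 2 dendritic cell subsets and between mice with and without Mx1-Cre. Both subsets were sorted as lineage-negative, CD11c+, MHCII+ and CD64-, type 2 cells (cDC2) as XCR1- and CD11b+, and type 1 cells (cDC1) as XCR1+ and CD11b-. The 4 groups were KO cDC2, WT cDC2, KO cDC1 and WT cDC1, with 2 libraries each. All mice carried a floxed Hdac1 gene and all had received poly I:C 2 weeks before the sort. KO mice also carried Mx1-Cre, a recombinase driven by an interferon-inducible promoter that acts in many blood and stromal cells and not only in dendritic cells. The mice called WT here were floxed without Cre and had received poly I:C as well. Ages, sexes and pooling of mice are not given in the sources used here. The labels do not say that the libraries of a group came from separate animals, so each p-value reflects no more than how far the libraries at hand scatter, which may be technical. For Hdac1 and the marker genes below, summits were counted over the gene span and 1 kb to either side of it. At Hdac1 they numbered 1 to 2 in every library, and a list of summits does not check the deletion. The Cd8a gene, a marker of cDC1, held 0 summits in each cDC2 library and 1 to 2 in each cDC1 library. The gene for Sirpa, a marker of cDC2, held 3 to 4 summits in each cDC2 library and 1 to 2 in each cDC1 library. Other markers did not part the subsets, with 2 to 3 summits in Clec9a and 4 to 7 in Itgam in every library, and 0 to 1 in Xcr1. The deposited lists held 69025 and 78296 summits in KO cDC2, 66609 and 61737 in WT cDC2, 74963 and 96031 in KO cDC1, and 76022 and 77585 in WT cDC1.

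Open chromatin between genes marks places where nucleosomes are displaced and proteins can reach the DNA. Such sites can be enhancers, insulators bound by CTCF, or promoters of noncoding transcripts such as long noncoding RNAs (lncRNAs) and microRNA precursors. PU.1, an ETS family factor, together with IRF, RUNX and AP-1 family factors, is known for binding many enhancers of myeloid and dendritic cells. HDAC1 removes acetyl groups from histones as a subunit of corepressor complexes such as NuRD and CoREST, and deacetylation is a textbook mark of repression. Enhancers can act on genes that are not their nearest neighbour, so each site below is named by the nearest protein-coding gene only to say where it lies.

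Some members lay over annotated starts of lncRNAs, where the sequence was at hand. Of the 6615 members, 186 (2.81%) overlapped a promoter window of a lncRNA, the 250 bases before to 50 bases after its start, against 187 (0.848%) of the 22063 sites between genes found in 1 to 7 libraries. Together the 186 members touched 202 of the 11588 lncRNA windows. The median summit position of these sites lay 50.5 bp upstream of the start at the median. Quartiles were 103 bp upstream and 12 bp downstream. Of the 193 measured pairs of site and start, 138 were upstream. The window reaches farther before the start than after it. A majority upstream is therefore favoured by the choice of window and is not a result. The 9 windows below are printed from RefSeq, GRCm38.p6, 5′ to 3′ on the strand of the lncRNA. The Dancr, 1700096K18Rik and Gm33560 windows are those with the highest mean score percentile, the 2900076A07Rik and Gm17382 windows those with the highest percentile that held the PU.1 form of the ETS motif and the CTCF motif, the Gm15411 and Gm42141 windows those whose sites were most raised in cDC2, and the 2310034G01Rik and E130018N17Rik windows those whose sites were most lowered in cDC2. Capitals mark matches to the motifs searched on both strands, CCA, any 2 bases, AG, any 2 bases and GGC for CTCF, GAGGAAGT for the PU.1 form of the ETS motif, GAAA, any 2 bases and GAAA for IRF, TGANTCA for AP-1 and TGTGGT for RUNX.
Dancr: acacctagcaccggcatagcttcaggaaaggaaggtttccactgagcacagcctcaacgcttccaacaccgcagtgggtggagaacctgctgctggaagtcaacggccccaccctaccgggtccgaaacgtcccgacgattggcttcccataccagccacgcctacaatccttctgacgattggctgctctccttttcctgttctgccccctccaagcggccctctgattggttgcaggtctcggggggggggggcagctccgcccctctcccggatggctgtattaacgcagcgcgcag
1700096K18Rik: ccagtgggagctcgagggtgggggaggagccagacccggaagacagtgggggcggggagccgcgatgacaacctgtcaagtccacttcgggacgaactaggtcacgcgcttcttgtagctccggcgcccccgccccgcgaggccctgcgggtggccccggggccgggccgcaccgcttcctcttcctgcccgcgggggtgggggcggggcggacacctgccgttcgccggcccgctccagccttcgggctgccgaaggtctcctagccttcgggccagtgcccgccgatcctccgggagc
Gm33560: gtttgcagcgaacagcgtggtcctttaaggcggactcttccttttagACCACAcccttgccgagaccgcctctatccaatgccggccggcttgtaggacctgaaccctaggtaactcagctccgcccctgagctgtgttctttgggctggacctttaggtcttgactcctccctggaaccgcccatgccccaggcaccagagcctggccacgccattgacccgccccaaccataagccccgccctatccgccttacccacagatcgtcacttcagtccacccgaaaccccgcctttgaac
2900076A07Rik: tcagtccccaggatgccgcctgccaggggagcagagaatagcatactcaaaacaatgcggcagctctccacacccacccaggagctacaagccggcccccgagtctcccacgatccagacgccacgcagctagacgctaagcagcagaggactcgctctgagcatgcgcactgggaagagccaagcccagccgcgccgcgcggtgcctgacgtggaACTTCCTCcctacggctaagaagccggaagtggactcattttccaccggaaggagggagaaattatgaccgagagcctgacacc
Gm17382: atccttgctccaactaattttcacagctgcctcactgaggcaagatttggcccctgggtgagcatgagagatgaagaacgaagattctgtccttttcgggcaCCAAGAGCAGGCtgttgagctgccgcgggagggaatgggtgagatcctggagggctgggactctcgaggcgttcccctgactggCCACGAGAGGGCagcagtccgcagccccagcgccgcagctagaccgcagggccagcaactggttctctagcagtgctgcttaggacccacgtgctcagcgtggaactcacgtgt
Gm15411: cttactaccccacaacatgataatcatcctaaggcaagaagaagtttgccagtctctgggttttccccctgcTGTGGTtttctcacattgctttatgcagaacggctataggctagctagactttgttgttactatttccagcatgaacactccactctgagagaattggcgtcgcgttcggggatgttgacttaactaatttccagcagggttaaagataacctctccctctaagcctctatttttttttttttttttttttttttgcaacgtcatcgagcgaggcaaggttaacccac
Gm42141: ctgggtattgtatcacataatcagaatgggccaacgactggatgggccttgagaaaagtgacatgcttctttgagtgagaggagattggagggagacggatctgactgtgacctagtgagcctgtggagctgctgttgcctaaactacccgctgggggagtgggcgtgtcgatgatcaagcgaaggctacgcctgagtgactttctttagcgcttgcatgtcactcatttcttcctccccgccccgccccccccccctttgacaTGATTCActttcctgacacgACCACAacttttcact
2310034G01Rik: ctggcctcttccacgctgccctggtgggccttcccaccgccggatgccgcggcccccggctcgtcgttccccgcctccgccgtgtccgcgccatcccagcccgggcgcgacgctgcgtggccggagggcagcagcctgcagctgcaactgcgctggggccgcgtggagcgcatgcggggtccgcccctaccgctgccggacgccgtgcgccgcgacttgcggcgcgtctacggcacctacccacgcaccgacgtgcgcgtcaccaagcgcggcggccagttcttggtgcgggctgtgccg
E130018N17Rik: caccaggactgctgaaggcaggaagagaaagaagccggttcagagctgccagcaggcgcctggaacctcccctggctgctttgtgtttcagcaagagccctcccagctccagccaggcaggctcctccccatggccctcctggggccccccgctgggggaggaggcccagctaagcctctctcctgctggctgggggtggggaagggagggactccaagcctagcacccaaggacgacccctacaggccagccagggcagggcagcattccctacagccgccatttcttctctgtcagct

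The Dancr window is chr5:74092810-74093109 on the plus strand, with a GC content of 61.3% and 18 CpG pairs. The 1700096K18Rik window is chr5:25529768-25530067 on the plus strand, with 74.0% GC and 33 CpG pairs, and the Gm33560 window is chr7:141122981-141123280 on the plus strand, with 16 CpG pairs. The 2900076A07Rik window is chr7:81523300-81523599 on the plus strand and the Gm17382 window is chr17:26886197-26886496 on the minus strand. The Gm15411 window is chr5:149015831-149016130 on the minus strand, with a GC content of 42.7% and 8 CpG pairs, and the Gm42141 window is chr5:105495172-105495471 on the plus strand, with 11 CpG pairs. The 2310034G01Rik window is chr19:46348939-46349238 on the minus strand, with a GC content of 76.3% and 46 CpG pairs, and the E130018N17Rik window is chr2:168154464-168154763 on the minus strand, with 5 CpG pairs. The windows over members ranged from poor to rich in CpG. Over all 202 windows at a member the median GC content was 54.0% and the median number of CpG pairs was 10, against 48.3% and 4 in the 11386 other lncRNA windows.

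The CTCF letters stood in 22 of the 202 windows at a member (10.9%) and in 277 of the 11386 other lncRNA windows (2.43%). The PU.1 form of the ETS motif stood in 20 windows at a member (9.90%) and in 366 others (3.21%). Shares were closer for the other motifs. IRF letters were found in 4.95% and 3.58%, AP-1 letters in 10.4% and 9.29%, and RUNX letters in 16.3% and 20.1% of windows at a member and of other lncRNA windows. Over all 32851 promoter windows in the table, coding and noncoding, the shares were 2.43% for CTCF, 3.20% for the PU.1 form, 3.44% for IRF, 7.81% for AP-1 and 16.8% for RUNX. A match describes the letters in the window and is not a bound site.

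The RefSeq sequence table held 1005 microRNA hairpins, and 15 members lay within 1 kb of at least 1 of them, 17 microRNA genes in all. Counted against all 1228 microRNA genes of the gene table, 17 members lay within 1 kb of one. Of the mature forms 8 are shown, chosen after their values were seen, because their sites were raised or lowered in cDC2 or because the microRNA is well known in immune cells. Capitals mark the seed, bases 2 to 8, which pairs with target messenger RNAs. The 30 mature forms near members had 30 distinct seeds, so none was shared.
mmu-miR-155-5p: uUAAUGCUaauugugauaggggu
mmu-let-7i-5p: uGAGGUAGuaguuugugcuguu
mmu-miR-713: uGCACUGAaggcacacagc
mmu-miR-8096: gGGCACGGuagcugaagagu
mmu-miR-5103: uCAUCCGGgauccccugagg
mmu-miR-193a-3p: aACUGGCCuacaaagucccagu
mmu-miR-6516-5p: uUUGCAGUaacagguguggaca
mmu-miR-24-3p: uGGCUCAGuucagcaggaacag

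Sites between genes were present in all libraries about as often as sites inside genes. Of 28678 sites between genes 23.1% were found in all 8 libraries, against 21.8% of 52976 sites inside genes, 51.4% of 17486 sites within 1 kb of either end of a gene span (called gene ends here), and 18.9% of 13303 sites over 50 kb away. Sites between genes made up 22.3% of the sites in all 8 libraries and 26.6% of those in 1 to 7 libraries. Each site's best score in a library was turned into a percentile, from 0 for the lowest to 100 for the highest, among the 29645 sites present in all 8 libraries. The median percentile of members was 39.0 and 38.9 in KO cDC2, 39.3 and 39.2 in WT cDC2, 37.1 and 38.1 in KO cDC1, and 38.1 and 38.4 in WT cDC1. All 4 medians in cDC2 lay above all 4 in cDC1, within a narrow band. At gene ends the medians lay between 72.3 and 79.2, inside genes between 40.7 and 42.4, and over 50 kb from a gene between 37.1 and 44.1. Members held few of the strongest peaks, since 1.62% to 3.45% of them were above the 90th percentile, against 22.6% to 27.2% of the sites at gene ends.

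**Figure D1:**
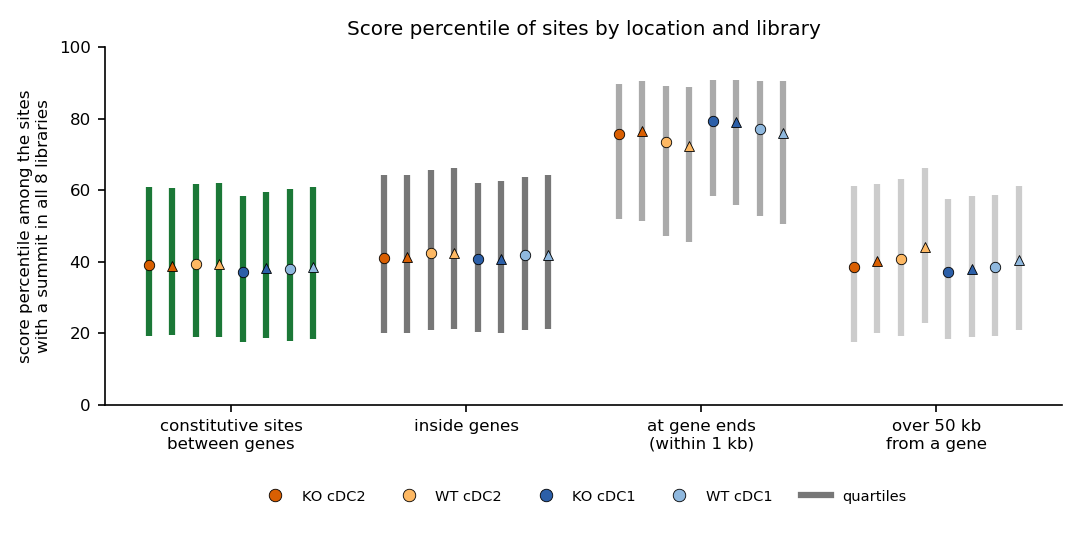
Median score percentile (markers, circles for library 1 and triangles for library 2 of a group) with quartiles (bars) of the sites present in all 8 libraries, by location and library. Members between genes sit between 37.1 and 39.3 in every library, far below the sites at gene ends (72.3 to 79.2).

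Members were narrow and spread over the genome. The median site spanned 101 bp from its first to its last summit, and 96.8% of members had exactly 1 summit in each library. The median distance from the nearest gene was 12.3 kb, with 1453 members at 1 to 5 kb, 1358 at 5 to 10 kb, 1673 at 10 to 20 kb and 2131 at 20 to 50 kb. Sites between genes found in fewer libraries had a median distance of 12.7 kb. Chromosome 1 held the most members (533) and chromosome X held 123, while chromosome Y held 0. Chromosome 17 had the highest share of its sites between genes in all 8 libraries, 27.2%, and among chromosomes with members chromosome X had the lowest, 17.6%. Another constitutive site lay within 10 kb of 3360 members (50.8%), and 758 members (11.5%) had no other site of any kind within 10 kb.

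The 6 members with the highest mean percentile over the 8 libraries are given as a description, since that mean chose them and the scale ends at 100. The highest, at chr17:17910304-17910338 and 16.4 kb from Fpr2, which encodes a receptor for formyl peptides, had percentiles of 99.95 and 99.96 in KO cDC2, 99.9 and 99.8 in WT cDC2, 99.5 and 99.8 in KO cDC1, and 99.9 and 99.9 in WT cDC1. The second lay at the Dancr start, 24.6 kb from Usp46, a deubiquitinase gene, with 98.9 and 99.3 in KO cDC2, 99.9 and 99.4 in WT cDC2, 98.4 and 98.4 in KO cDC1, and 96.9 and 98.1 in WT cDC1. The third lay 11.2 kb from Gnpda1, an enzyme of amino sugar metabolism, with 98.9 and 98.2 in KO cDC2, 98.8 and 99.1 in WT cDC2, 97.9 and 98.03 in KO cDC1, and 97.8 and 99.4 in WT cDC1. The subsets overlapped at the Fpr2 and Gnpda1 sites, and every cDC2 library was above every cDC1 library at the Dancr site. The site before the 1700096K18Rik start, near Cct8l1, had 98.97 and 96.5 in KO cDC2, 97.1 and 96.3 in WT cDC2, 99.8 and 99.3 in KO cDC1, and 99.7 and 99.3 in WT cDC1. Its median summit lay at -273 bp from the start, outside the printed window, which the site only touched. The site near Zfp324, a zinc finger gene, had 97.5 and 98.2 in KO cDC2, 97.7 and 97.5 in WT cDC2, 99.6 and 97.6 in KO cDC1, and 99.1 and 99.4 in WT cDC1, and the site near Ptpdc1, a phosphatase gene, had 96.7 and 97.9 in KO cDC2, 98.8 and 97.7 in WT cDC2, 97.5 and 99.2 in KO cDC1, and 99.5 and 99.1 in WT cDC1. None of these 6 sites differed between cDC2 and cDC1 past the threshold. In all, 31 members were above the 90th percentile in every library and 92 (1.39%) had a mean over 90, while 264 (3.99%) had a mean under 10.

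The range of a member's percentile over 8 libraries had a median of 35.6 percentile points, with quartiles at 25.9 and 45.9. It was under 10 points for 113 members (1.71%) and over 50 points for 1183 (17.9%). As a description over 6615 sites, which share the libraries and their depth, the Spearman correlation of the percentiles was 0.780 to 0.862 for the 4 pairs of libraries of 1 group, 0.748 to 0.825 for the 8 pairs of 1 subset and different genotype, and 0.503 to 0.594 for the 16 pairs across subsets. Libraries thus resembled each other by subset, and pairs across genotypes within a subset lay nearly as close as libraries of 1 group. Over all 29645 sites the pairs across subsets ranged from 0.687 to 0.761.

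The comparison of cDC2 with cDC1 asks how far sites open in both subsets differed in strength. Differences in percentile were fitted with limma over all 29645 sites, and a site was called at a Benjamini-Hochberg adjusted p of 0.05. Of the 6615 members, 1037 (15.7%) were higher and 795 (12.02%) were lower in cDC2, together 1832 (27.7%). Over all sites tested 27.9% were called, 13.8% higher and 14.2% lower, so the members' total was near the background. The libraries of the subsets did not overlap at 913 members higher and 714 members lower in cDC2, 13.8% and 10.8% of members, against 12% and 12.8% of all sites. The median difference was 1.98 points for members and -0.02 points for all sites. Without library 1 of WT cDC1 the count fell to 1140 members, 629 higher and 511 lower. Ranked only against sites between genes, 882 members were higher and 873 lower, a share of higher calls of 50.3% against 56.6%, so on that scale the calls were split nearly evenly. Among the other locations, 7.40% of sites at gene ends were higher and 16.6% lower in cDC2, 16.3% and 13.7% of sites inside genes, and 19.8% and 13.3% of sites over 50 kb away.

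The 12 called members most raised in cDC2 with no overlap between subsets spanned differences of 60.5 to 71.6 points. The site at chr1:162565178-162565218, 5.32 kb from Vamp4, a SNARE of trans-Golgi vesicles, had percentiles of 86.5 and 86.6 in KO cDC2, 88.9 and 84.3 in WT cDC2, 6.08 and 26.1 in KO cDC1, and 27.3 and 0.427 in WT cDC1. Its difference was 71.6 ± 8.15 (SE, adjusted p = 0.000111). All 4 cDC2 libraries lay within 5 points of each other, and the cDC1 libraries were spread over the low part of the scale. The site at chr16:50632744-50632878 near Ccdc54 had 73.1 and 67.8 in KO cDC2, 80.3 and 78.2 in WT cDC2, 11.7 and 0.351 in KO cDC1, and 1.48 and 8.86 in WT cDC1, a difference of 69.3 ± 7.21 (SE, adjusted p = 9.08e-05). The site at chr3:9020386-9020581 near Tpd52, a gene of vesicle traffic, had 94.2 and 86.2 in KO cDC2, 93.9 and 93.5 in WT cDC2, 28.99 and 17.1 in KO cDC1, and 21.1 and 29.3 in WT cDC1, a difference of 67.8 ± 6.62 (SE, adjusted p = 7.27e-05). It was among the strong sites in every cDC2 library and weak in every cDC1 library. A site 36.01 kb from Map3k8, which encodes the kinase TPL2 of toll-like receptor signalling, had 61.5 and 40.6 in KO cDC2, 80.3 and 84.5 in WT cDC2, 3.83 and 0.670 in KO cDC1, and 1.71 and 5.46 in WT cDC1, a difference of 63.8 ± 7.31 (SE, adjusted p = 0.000112). Its cDC2 libraries were spread, with the KO libraries below the WT libraries. The site near H2-M10.4, a nonclassical MHC class I gene, averaged 87.1 ± 6.03 in cDC2 and 22.1 ± 8.97 in cDC1 (SD, n = 4 each). The site near Pld1, a phospholipase D gene, averaged 81.8 ± 7.02 in cDC2 and 19.2 ± 12.8 in cDC1 (SD, n = 4 each). The site near St18, a zinc finger factor gene, averaged 81.9 ± 10.4 in cDC2 and 21.3 ± 4.16 in cDC1, and the site near Azin1, an inhibitor of antizyme, averaged 72.9 ± 1.20 in cDC2 and 12.4 ± 7.47 in cDC1 (SD, n = 4 each). The other sites of this group lay near Rbm24, an RNA-binding protein gene, Fbxl17, an F-box gene, Dipk2a, and Nav2, with differences of 66.4 (adjusted p = 0.000266), 65.4 (adjusted p = 0.000318), 65.3 (adjusted p = 0.000125) and 60.9 (adjusted p = 0.000122). Each of the 12 could be matched in 16 of 17 alternatives and was called in those. Matching failed only where sites were built anew, with a shorter list or another chaining distance. The 12 were chosen for their large differences, so the kept calls add no further support.

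The 12 most lowered in cDC2 reached differences from -82.9 to -66.4 points. The site at chr3:38491643-38491775, 6.85 kb from Ankrd50, a gene of endosomal recycling, had 0.523 and 0.673 in KO cDC2, 1.40 and 6.87 in WT cDC2, 86.9 and 79.1 in KO cDC1, and 88.9 and 85.99 in WT cDC1. Its difference was -82.9 ± 7.13 (SE, adjusted p = 6.19e-05), the largest among members in either direction. The site was near the floor of the scale in every cDC2 library and strong in every cDC1 library. The site at chr3:124533184-124533370 near 1700003H04Rik had 10.1 and 0.0540 in KO cDC2, 11.2 and 1.59 in WT cDC2, 85.7 and 88.2 in KO cDC1, and 85.9 and 87.9 in WT cDC1, a difference of -81.2 ± 7.24 (SE, adjusted p = 6.19e-05). The site at chr3:31134515-31134760 near Skil, a repressor of TGF-beta signalling, had 4.25 and 12.2 in KO cDC2, 0.243 and 15.96 in WT cDC2, 79.8 and 76.02 in KO cDC1, and 82.1 and 81.2 in WT cDC1, a difference of -71.6 ± 7.40 (SE, adjusted p = 9.08e-05). The site near Rspo4, an activator of Wnt signalling, had 20.5 and 12.8 in KO cDC2, 12.8 and 2.47 in WT cDC2, 85.3 and 81.5 in KO cDC1, and 81.7 and 90.3 in WT cDC1, a difference of -72.6 ± 7.26 (SE, adjusted p = 8.53e-05). At each of these 4 sites the cDC1 libraries lay within 10 points of each other and all cDC2 libraries were low. The site near Syde1 averaged 8.11 ± 6.66 in cDC2 and 79.2 ± 4.04 in cDC1, and the site near Sugct averaged 16.1 ± 7.08 in cDC2 and 86.6 ± 1.32 in cDC1 (SD, n = 4 each). The site near Arl15, a small GTPase gene, averaged 6.47 ± 5.37 in cDC2 and 75.99 ± 2.68 in cDC1, and the site near Rbm47, an RNA-binding protein gene, averaged 8.76 ± 6.86 in cDC2 and 75.2 ± 7.56 in cDC1 (SD, n = 4 each). The remaining 4 sites lay near Crispld1, Cox7c, a subunit gene of cytochrome c oxidase, Tuba1c, a tubulin gene, and Dennd1b, an activator of Rab35, with differences of -70.3 (adjusted p = 9.08e-05), -67.8 (adjusted p = 9.08e-05), -67.3 (adjusted p = 9.08e-05) and -66.7 (adjusted p = 0.000125). These 12 sites, chosen in the same way, could be matched in 15 or 16 of 17 alternatives and were called in those.

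**Figure D2:**
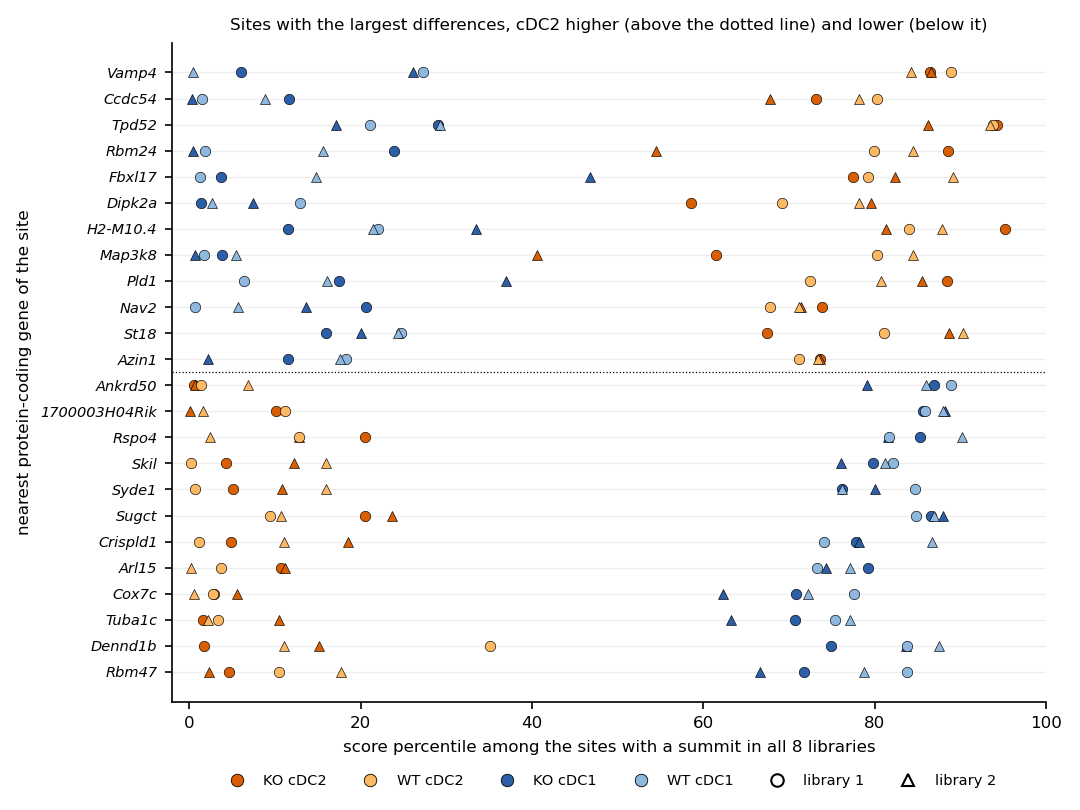
Score percentile of the 24 called members with the largest differences and no overlap between subsets, 1 marker per library, named by the nearest protein-coding gene. In every row the 4 cDC2 libraries (orange) and the 4 cDC1 libraries (blue) are fully apart.

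The subset difference was seen in both genotypes, which share no library. The fit used 1 estimate of the spread at each site for both, so the calls in KO and in WT were not independent. In KO mice 567 members (8.57%) were called, 308 higher and 259 lower, against a background of 7.57% of all sites (3.81% higher, 3.76% lower). In WT mice 908 members (13.7%) were called, 480 higher and 428 lower, against 13.4% (6.24% higher, 7.17% lower). Of the members called in KO, 553 of 567 had the same sign in WT, and of those called in WT, 886 of 908 had the same sign in KO. Both genotypes called 343 members, 60.5% of the KO calls and 37.8% of the WT calls, and all 343 had the same sign. Over all 6615 members 5054 (76.4%) had the same sign. As a description across members, the Spearman correlation of the differences in KO and WT was 0.708.

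**Figure D3:**
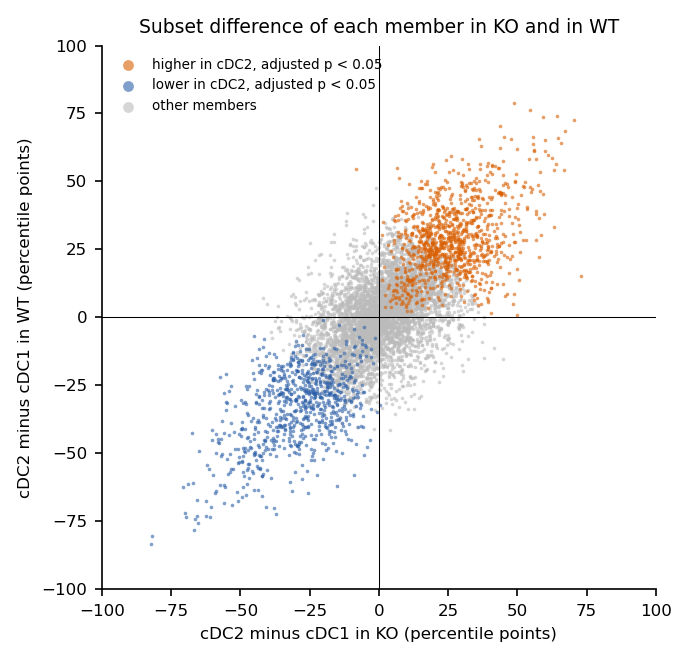
Difference in score percentile, cDC2 minus cDC1, of each of the 6615 members in KO (x axis) and in WT (y axis), in percentile points. Members higher in cDC2 (orange, 1037) and lower in cDC2 (blue, 795) were called on the mean of the KO and WT differences. That choice alone places them towards the upper right or the lower left. Over all members, 76.4% had the same sign in KO and in WT.

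Calls in favour of cDC2 were more frequent farther from genes. The share of members higher in cDC2 was 12.7%, 14.1%, 16.6% and 17.97% at 1 to 5, 5 to 10, 10 to 20 and 20 to 50 kb, while the share lower in cDC2 was 12.1%, 12.003%, 10.9% and 12.9%. The trend across distance was not tested. By mean percentile over all libraries, 155 members were higher and 127 lower in cDC2 of 1898 below the 25th percentile, 490 and 453 of 2626 from 25 to 50, 254 and 168 of 1531 from 50 to 75, and 138 and 47 of 560 from 75 upwards. Among the strongest members, calls higher in cDC2 were therefore 24.6% and calls lower in cDC2 8.39%. These shares use the scale of all sites. On it, sites at gene ends ranked highest and were more often called lower than higher in cDC2. Ranks within the location class gave 882 members higher and 873 lower, and the splits by distance and percentile were not repeated on them. Some sites were found in all 4 libraries of 1 subset and in none of the other. Of 325 members with such a cDC2 site and no such cDC1 site within 10 kb, 69 (21.2%) were higher and 37 lower in cDC2. Of 503 members with such a cDC1 site and no such cDC2 site, 71 (14.1%) were higher and 60 lower. Of 5756 members with neither, 889 (15.4%) were higher and 696 (12.1%) lower, and of all sites 13.8% and 14.2%. These splits were not tested. On chromosome X 15 members (12.2%) were higher and 2 (1.63%) lower of 123, against 13.8% and 14.2% of all sites.

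**Figure D4:**
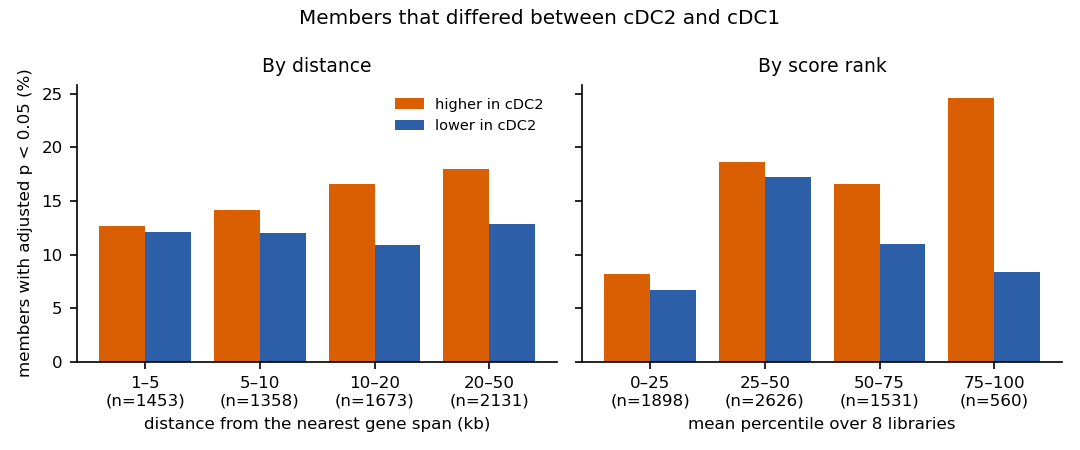
Share of members called higher (orange) or lower (blue) in cDC2, by distance from the nearest gene span and by mean score percentile, with the number of members in each class. The higher share reaches 17.97% at 20 to 50 kb and 24.6% at mean percentiles over 75, where the lower share is 8.39%. Percentiles and calls are on the scale of all sites present in all 8 libraries, not of sites between genes alone.

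Each member was also assigned to its nearest protein-coding gene. Of 21887 protein-coding genes 4188 (19.1%) were nearest to at least 1 member. The share was 23 of 31 for a list of dendritic cell transcription factors, with 59 members, 9 of 14 for pan-dendritic and MHC class II genes, with 20 members, 12 of 24 for cDC2 identity genes, with 29 members, and 11 of 24 for cDC1 identity genes, with 25 members. It was 6 of 13 for CTCF and cohesin genes and 7 of 18 for monocyte and macrophage genes. Among lists of other cell types it was 4 of 14 plasmacytoid dendritic cell, 3 of 15 T cell, 3 of 11 B cell, 3 of 11 NK cell, 3 of 10 granulocyte and 1 of 10 erythroid and megakaryocyte genes. Interferon-stimulated genes had 6 of 20, HDAC1 complex and deacetylase genes 4 of 24 and housekeeping genes 3 of 14. The space around a gene differs between genes and was not adjusted for.

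Around cDC1 identity genes 2 of 25 members were higher and 5 were lower in cDC2, with a median difference of -9.58 points against 1.98 for all members. The 7 called were 28% of the 25, near the 27.9% of all sites, so their number is not a result about these genes. Il12b, a subunit gene of interleukin 12, had 4 members. The site 17.8 kb from it had 21.2 and 0.543 in KO cDC2, 8.64 and 22.3 in WT cDC2, 71.8 and 35.8 in KO cDC1, and 81.5 and 61.5 in WT cDC1, a difference of -49.4 ± 9.30 (SE, adjusted p = 0.00187), and the site at 44.98 kb had 11.3 and 36.9 in KO cDC2, 30.4 and 35.02 in WT cDC2, 68.1 and 67.4 in KO cDC1, and 60.4 and 80.7 in WT cDC1, a difference of -40.8 ± 8.17 (SE, adjusted p = 0.00271). Both were lower in every cDC2 library than in any cDC1 library. Its other 2 members had differences of 3.93 (adjusted p = 0.635) and -15.3 (adjusted p = 0.140). The site 47.6 kb from Id2, an inhibitor of E proteins that cDC1 require, had 14.3 and 15.2 in KO cDC2, 22.1 and 19.6 in WT cDC2, 44.1 and 54.2 in KO cDC1, and 48.6 and 36.3 in WT cDC1, a difference of -28.01 ± 6.90 (SE, adjusted p = 0.00858). The site near Snx22, a sorting nexin gene typical of cDC1, had 14.5 and 17.2 in KO cDC2, 11.8 and 14.3 in WT cDC2, 53.8 and 55.2 in KO cDC1, and 24.1 and 55.8 in WT cDC1, a difference of -32.8 ± 7.73 (SE, adjusted p = 0.00681). At Il12b and Id2 the members lowered in cDC2 stood beside members that were not called, and 1 WT cDC1 library at Snx22 lay below the other cDC1 libraries. Irf8, the defining transcription factor of cDC1, had 4 members, of which the one at 6.74 kb was lower, with 11.02 and 6.87 in KO cDC2, 4.47 and 10.04 in WT cDC2, 37.03 and 18.7 in KO cDC1, and 17.8 and 45.5 in WT cDC1, a difference of -21.7 ± 7.19 (SE, adjusted p = 0.0364). The other Irf8 members, not called, had differences of -18.7 (adjusted p = 0.113), 14.2 (adjusted p = 0.323) and -11.5 (adjusted p = 0.320). Batf3, a factor required for cDC1, had a strong member 17.1 kb away that was higher in cDC2, with 84.4 and 83.4 in KO cDC2, 69.5 and 82.8 in WT cDC2, 63.7 and 63.6 in KO cDC1, and 61.2 and 62.6 in WT cDC1, a difference of 17.3 ± 4.53 (SE, adjusted p = 0.0120), and weaker members, not called, with differences of -11.1 (adjusted p = 0.297) and -19.6 (adjusted p = 0.0656). Btla, an inhibitory receptor gene, had a member that was higher in cDC2 by 29.8 ± 7.95 (SE, adjusted p = 0.0131), although the lowest cDC2 and the highest cDC1 library overlapped. Tlr3, the receptor for double-stranded RNA, had 4 members, the strongest at 72.3 and 78.2 in KO cDC2, 92.8 and 91.1 in WT cDC2, 76.8 and 70.4 in KO cDC1, and 83.8 and 88.9 in WT cDC1, and none was called. Members of Nfil3, Ly75, Naaa and Ppt1 were not called either. The calls at Irf8 (6 of 8, adjusted p = 0.149 without WT cDC1 library 2), Batf3 (1 of 8, adjusted p = 0.0621 without WT cDC2 library 2) and Btla (2 of 8, adjusted p = 0.0568 without WT cDC2 library 2) were lost when single libraries were left out. In these brackets stand the number of libraries of 8 whose removal lost the call and the largest adjusted p.

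Around cDC2 identity genes 3 of 29 members were higher and 5 were lower in cDC2, with a median difference of -1.26 points. The 8 called were 27.6% of the 29, again near the 27.9% of all sites. The largest differences were lower in cDC2. A site 4.29 kb from Il1b, which encodes interleukin 1 beta, had 5.55 and 18.9 in KO cDC2, 11.9 and 1.27 in WT cDC2, 50.4 and 64.03 in KO cDC1, and 74.1 and 66.3 in WT cDC1, a difference of -54.3 ± 7.46 (SE, adjusted p = 0.000280). Another Il1b site, 2.31 kb away, averaged 72.5 ± 7.97 in cDC2 and 72.5 ± 7.64 in cDC1 (SD, n = 4 each). Irf4, a factor that cDC2 require, had 1 member, 10.5 kb away, with 21.9 and 59.4 in KO cDC2, 24.8 and 13.2 in WT cDC2, 51.99 and 77.3 in KO cDC1, and 68.7 and 71.1 in WT cDC1, a difference of -37.4 ± 9.25 (SE, adjusted p = 0.00874). Its groups overlapped through 1 KO cDC2 library. Hes1, a target of Notch signalling, had 4 members, with sites at 2.64 and 1.13 kb lower in cDC2. Their differences were -36.7 ± 7.05 (SE, adjusted p = 0.00210) and -27.5 ± 6.68 (SE, adjusted p = 0.00795). Its members at 41.8 and 26.00 kb, not called, had differences of -1.26 (adjusted p = 0.818) and 9.68 (adjusted p = 0.170). Cd4, a coreceptor that part of splenic cDC2 carry, had a member that was lower, with a difference of -29.03 ± 8.68 (SE, adjusted p = 0.0228). Higher in cDC2 were a site 12.2 kb from Klf4, a factor of the cDC2 lineage, with 81.4 and 81.6 in KO cDC2, 72.9 and 78.7 in WT cDC2, 70.3 and 66.1 in KO cDC1, and 59.4 and 61.9 in WT cDC1, a site near Notch2, a receptor that splenic cDC2 require, and a site near Tlr5, the receptor for flagellin. Their differences were 14.2 ± 4.27 (SE, adjusted p = 0.0233), 25.8 ± 8.05 (SE, adjusted p = 0.0279) and 32.8 ± 8.88 (SE, adjusted p = 0.0140). Sirpa, whose product marks cDC2, had 2 members that had mean percentiles above the members' median in both subsets and were not called, one of them with 87.6 and 78.7 in KO cDC2, 88.2 and 76.1 in WT cDC2, 70.5 and 76.4 in KO cDC1, and 82.6 and 83.9 in WT cDC1. Members of Zeb2, Itgam, Rbpj and Ccr2 were not called. Without single libraries the calls were lost at Klf4 (5 of 8, adjusted p = 0.0786 without WT cDC2 library 2), Notch2 (6 of 8, adjusted p = 0.130 without KO cDC1 library 1), Tlr5 (3 of 8, adjusted p = 0.0729 without KO cDC1 library 1) and Cd4 (5 of 8, adjusted p = 0.103 without WT cDC2 library 2).

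**Figure D5:**
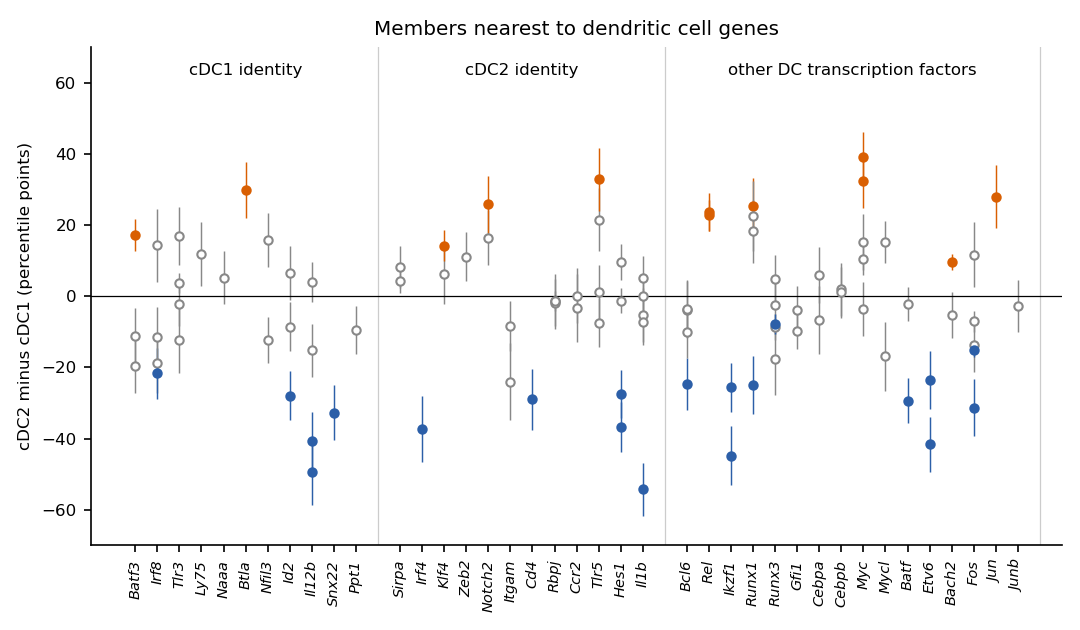
Difference in score percentile, cDC2 minus cDC1, with its standard error, of every member nearest to a listed dendritic cell gene, filled where called. Factors on both an identity list and the transcription factor list are drawn once, under identity, and members of 1 gene, such as Il12b, Hes1 or Myc, often stand at different heights.

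Among the 59 members near dendritic cell transcription factors 9 were higher and 13 lower in cDC2, 37.3% against 27.9% of all sites. These counts include the members of Irf8, Irf4, Batf3, Id2 and Klf4 given above. Larger shares were called near other genes too, such as 58.3% of 12 housekeeping and 46.7% of 15 monocyte and macrophage members. Smaller ones included 22.2% of 9 NK cell members, so a raised share was not particular to these factors. Rel, an NF-kappaB subunit gene, had 2 members, both higher. The nearer one had 91.6 and 88.2 in KO cDC2, 85.3 and 82.1 in WT cDC2, 56.5 and 73.5 in KO cDC1, and 59.1 and 67.3 in WT cDC1, a difference of 22.7 ± 4.31 (SE, adjusted p = 0.00198), and the other differed by 23.7 ± 5.33 (SE, adjusted p = 0.00524). Myc, a growth regulator, had 5 members, of which those at 12.6 and 21.6 kb were higher, with differences of 39.03 ± 6.97 (SE, adjusted p = 0.00132) and 32.4 ± 7.78 (SE, adjusted p = 0.00751). Bach2, a repressor, had a strong member higher by 9.55 ± 2.29 (SE, adjusted p = 0.00740), and Jun, an AP-1 subunit gene, had 1 higher by 27.9 ± 8.86 (SE, adjusted p = 0.0299). Lower in cDC2 were both members of Ikzf1, the Ikaros gene, with differences of -44.9 ± 8.25 (SE, adjusted p = 0.00161) for the farther site and -25.6 ± 7.0 (SE, adjusted p = 0.0147) for the nearer. Both members near Etv6, an ETS family repressor gene, were lower too, the farther with a difference of -41.6 ± 7.80 (SE, adjusted p = 0.00182) and the nearer with -23.6 ± 8.10 (SE, adjusted p = 0.0419). Fos, an AP-1 subunit gene, had 5 members. The one at 8.83 kb was strong and lower in cDC2, with 84.4 and 79.2 in KO cDC2, 77.7 and 75.1 in WT cDC2, 92.99 and 94.5 in KO cDC1, and 95.4 and 93.8 in WT cDC1, a difference of -15.1 ± 2.08 (SE, adjusted p = 0.000286), and the one at 1.61 kb had -31.3 ± 7.91 (SE, adjusted p = 0.00985). Batf, another AP-1 factor gene, had 1 of 2 members lower, with a difference of -29.3 ± 6.46 (SE, adjusted p = 0.00467), and Bcl6, a repressor gene, 1 of 4, with -24.6 ± 7.26 (SE, adjusted p = 0.0214). Runx1 had members of both kinds close together, at 38.3 kb with a difference of 25.2 ± 8.08 (SE, adjusted p = 0.0314) and at 41.4 kb with -24.99 ± 8.11 (SE, adjusted p = 0.0330). Runx3, a factor of several leukocyte lineages, had 5 members, of which the strongest was lower, with a difference of -7.81 ± 2.74 (SE, adjusted p = 0.0458). Members of Gfi1, Cebpa, Cebpb, Mycl and Junb were not called. The calls were lost without single libraries at Ikzf1 for the nearer site (1 of 8, adjusted p = 0.0655 without WT cDC1 library 2), Etv6 for the nearer site (6 of 8, adjusted p = 0.156 without WT cDC2 library 1), Fos for the nearer site (1 of 8, adjusted p = 0.0537 without WT cDC2 library 2), Bcl6 (5 of 8, adjusted p = 0.0922 without WT cDC2 library 2), Jun (5 of 8, adjusted p = 0.151 without WT cDC1 library 2), Runx3 (7 of 8, adjusted p = 0.164 without KO cDC2 library 2) and both Runx1 sites (6 of 8, adjusted p = 0.131 without WT cDC1 library 2 and 7 of 8, adjusted p = 0.138 without KO cDC1 library 2). The Bach2 call was kept without any 1 library and lost in the limma fit without a variance trend (adjusted p = 0.0874) and with ranks within the location class (adjusted p = 0.143).

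For further lists the strongest member was examined. Dpp4, a peptidase gene expressed in dendritic cells, had a site with 95.4 and 97.8 in KO cDC2, 98.6 and 98.4 in WT cDC2, 84.2 and 91.6 in KO cDC1, and 89.1 and 87.6 in WT cDC1, higher in cDC2 by 9.45 ± 1.67 (SE, adjusted p = 0.00125). Nr4a1, a nuclear receptor gene of monocytes, had one with 83.7 and 80.7 in KO cDC2, 80.04 and 85.9 in WT cDC2, 95.5 and 94.1 in KO cDC1, and 94.8 and 97.3 in WT cDC1, lower in cDC2 with a difference of -12.8 ± 1.91 (SE, adjusted p = 0.000461). Every cDC2 library was below every cDC1 library at Nr4a1 and above every cDC1 library at Dpp4. Siglech, a plasmacytoid dendritic cell gene, had a site higher in cDC2 by 8.60 ± 2.25 (SE, adjusted p = 0.0118), and Cr2, a B cell gene, one higher by 32.5 ± 7.17 (SE, adjusted p = 0.00471). Tal1, an erythroid factor gene, had one lower, with a difference of -20.9 ± 7.43 (SE, adjusted p = 0.0481). The calls at Siglech (2 of 8, adjusted p = 0.0542 without WT cDC1 library 1) and Tal1 (7 of 8, adjusted p = 0.178 without WT cDC1 library 2) were lost when single libraries were left out. The Dpp4 call was lost in the limma fit without a variance trend (adjusted p = 0.0757) and with ranks within the location class (adjusted p = 0.148). In the same limma fits the Siglech call was lost as well (adjusted p = 0.115 and 0.151). The strongest members of 6 further lists were not called. Their differences were -10.4 (adjusted p = 0.403) at Cd8b1, -7.40 (adjusted p = 0.222) at Klrb1c, -1.24 (adjusted p = 0.847) at Csf3r, 3.20 (adjusted p = 0.274) at Yy1, 9.77 (adjusted p = 0.137) at Actb and -6.26 (adjusted p = 0.258) at Gatad2a, a subunit gene of the NuRD complex. The HDAC1 complex list had 6 members, of which 2 were lower in cDC2 and 0 higher. A second site near Gatad2a was among the lower ones. Counts for this and the following small lists stand against 13.8% of all sites called higher and 14.2% lower. The other lists had 2 higher and 5 lower of 20 (pan-dendritic and MHC class II), 2 and 2 of 6 (plasmacytoid), 3 and 4 of 15 (monocyte and macrophage), 0 and 2 of 4 (T cell), 1 and 0 of 3 (B cell), 1 and 1 of 9 (NK cell), 0 and 0 of 3 (granulocyte), 2 and 1 of 7 (interferon-stimulated), 1 and 2 of 8 (CTCF and cohesin) and 2 and 5 of 12 (housekeeping).

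Members gathered around some genes. At least 2 members were nearest to each of 1476 genes, and at least 5 to each of 85. Pmaip1, which encodes the cell death protein Noxa, had the most, 9 sites from 2.47 to 48.0 kb away with mean percentiles of 15.0 to 76.7. Of these 1 was higher in cDC2, with 32.1 and 62.9 in KO cDC2, 52.1 and 50.2 in WT cDC2, 18.2 and 12.96 in KO cDC1, and 13.00 and 13.5 in WT cDC1, a difference of 34.9 ± 7.74 (SE, adjusted p = 0.00486). The next genes, with 8 members each, were Ier5, Sub1 and Lrrc8c, which were looked at after their values were seen. Ier5, an immediate early gene, had 1 called member, 12.8 kb away, with 72.9 and 81.7 in KO cDC2, 76.5 and 75.5 in WT cDC2, 91.9 and 91.1 in KO cDC1, and 89.96 and 90.7 in WT cDC1, a difference of -14.3 ± 2.54 (SE, adjusted p = 0.00131). At Lrrc8c, a subunit gene of a volume-regulated anion channel, members of opposite direction lay side by side. The site at 3.77 kb was lower, with 30.5 and 45.3 in KO cDC2, 36.4 and 14.7 in WT cDC2, 86.8 and 83.8 in KO cDC1, and 78.01 and 81.2 in WT cDC1, and the site at 29.7 kb was higher, with 56.7 and 59.7 in KO cDC2, 65.1 and 65.2 in WT cDC2, 23.8 and 12.5 in KO cDC1, and 25.3 and 29.8 in WT cDC1. Their differences were -50.7 ± 7.25 (SE, adjusted p = 0.000353) and 38.8 ± 7.18 (SE, adjusted p = 0.00168). In all 3 Lrrc8c members were higher and 2 lower in cDC2, and at Sub1, a transcriptional coactivator gene, 3 were higher and 1 lower. Over all sites 13.8% were called higher and 14.2% lower. Other genes with many members had no calls, with 0 of 7 at Irf2bpl and 0 of 6 at H2az1. The 4 Sub1 calls and 2 of the 5 Lrrc8c calls were lost when single libraries were left out, with adjusted p reaching 0.125 at both genes.

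Members that overlapped a lncRNA promoter window ranked above other members. Their median mean percentile was 49.4, against 36.7 for the rest, and 10 of 186 (5.38%) had a mean over 90, against 1.28%. Of the 186, 21 (11.3%) were higher and 27 (14.5%) lower in cDC2, near the 13.8% and 14.2% of all sites. The 96 members whose window held 10 or more CpG pairs had a median of 63.8, with 4 higher and 17 lower. The 90 members with fewer CpG pairs had a median of 38.5, with 17 higher and 10 lower. Members with the PU.1 form of the ETS motif numbered 16, of which 7 were higher and 1 lower in cDC2, and of the 170 others 14 were higher and 26 lower. Members with the CTCF letters numbered 18, with a median of 31.9, and 2 were higher and 2 lower. A member that touched more than 1 window was classed by 1 of them. Members classed without a motif can therefore hold it in another window. These splits are small counts and were not tested. Members inside the span of a lncRNA, 1186 in all, were 17.9% of members against 16.5% of other sites between genes and had a median of 37.8.

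The printed windows show both ends of this range. The site at the Gm15411 start, 30.7 kb from Hmgb1, had 58.5 and 27.1 in KO cDC2, 82.98 and 52.5 in WT cDC2, 12.2 and 1.19 in KO cDC1, and 3.54 and 0.508 in WT cDC1, a difference of 50.9 ± 8.74 (SE, adjusted p = 0.00102). The site at the Gm42141 start, near Lrrc8b, had 74.8 and 72.4 in KO cDC2, 71.5 and 73.9 in WT cDC2, 15.1 and 50.1 in KO cDC1, and 12.8 and 27.3 in WT cDC1, a difference of 46.8 ± 8.50 (SE, adjusted p = 0.00147). At both sites every cDC2 library was above every cDC1 library. Both windows held the RUNX letters, as did 16.3% of all windows at a member. The Gm33560 window, whose site was not called, held them too. The site at the 2310034G01Rik start, near Mfsd13a, had 32.4 and 2.63 in KO cDC2, 21.9 and 8.56 in WT cDC2, 69.98 and 63.9 in KO cDC1, and 70.03 and 66.5 in WT cDC1, a difference of -51.2 ± 8.24 (SE, adjusted p = 0.000703). The site at the E130018N17Rik start, near Adnp, had 69.5 and 44.4 in KO cDC2, 15.5 and 4.69 in WT cDC2, 85.5 and 91.2 in KO cDC1, and 83.01 and 65.3 in WT cDC1, a difference of -47.7 ± 7.66 (SE, adjusted p = 0.000695). At E130018N17Rik 1 KO cDC2 library was above 1 WT cDC1 library, so the subsets overlapped. The site at the Gm33560 start had 96.2 and 95.5 in KO cDC2, 98.1 and 95.1 in WT cDC2, 97.96 and 97.5 in KO cDC1, and 99.7 and 98.03 in WT cDC1, the site at the 2900076A07Rik start 78.1 and 81.5 in KO cDC2, 86.2 and 89.2 in WT cDC2, 78.6 and 77.03 in KO cDC1, and 83.6 and 74.6 in WT cDC1, and the site at the Gm17382 start, whose window held CTCF letters at 2 places, 55.1 and 55.5 in KO cDC2, 63.3 and 59.7 in WT cDC2, 70.2 and 65.5 in KO cDC1, and 65.05 and 65.6 in WT cDC1. None of these 3 sites was called, and their differences were -2.09 (adjusted p = 0.172), 5.28 (adjusted p = 0.194) and -8.20 (adjusted p = 0.302).

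Near microRNAs, the site chr16:84713319-84713382, 790 bp from the hairpin of miR-155, a regulator of dendritic cell activation, had 79.8 and 77.9 in KO cDC2, 91.00 and 79.7 in WT cDC2, 79.3 and 63.2 in KO cDC1, and 75.2 and 79.8 in WT cDC1. A second site 37 bp from the same hairpin had 42.2 and 27.1 in KO cDC2, 42.1 and 50.1 in WT cDC2, 56.6 and 32.7 in KO cDC1, and 48.3 and 61.1 in WT cDC1. Their differences were 7.71 (adjusted p = 0.168) and -9.30 (adjusted p = 0.418), and neither was called. The site 163 bp from let-7i had 76.9 and 77.4 in KO cDC2, 57.3 and 80.8 in WT cDC2, 73.6 and 73.7 in KO cDC1, and 77.7 and 73.1 in WT cDC1, a difference of -1.42 (adjusted p = 0.856). Called higher in cDC2 were the sites near miR-713, with 89.4 and 93.9 in KO cDC2, 90.9 and 95.1 in WT cDC2, 78.3 and 87.4 in KO cDC1, and 73.2 and 73.9 in WT cDC1 and a difference of 14.1 ± 2.52 (SE, adjusted p = 0.00134), miR-8096 with 28.3 ± 7.70 (SE, adjusted p = 0.0144) and miR-5103 with 23.5 ± 6.27 (SE, adjusted p = 0.0132). Called lower were those near miR-193a, with 33.9 and 22.8 in KO cDC2, 30.5 and 36.6 in WT cDC2, 65.3 and 55.97 in KO cDC1, and 62.5 and 47.9 in WT cDC1 and a difference of -26.97 ± 7.55 (SE, adjusted p = 0.0166), and miR-6516, with -25.2 ± 8.99 (SE, adjusted p = 0.0490). The site 849 bp from the hairpin of miR-24-2, which also lay within 1 kb of miR-23a and miR-27a, was not called, with a difference of 7.46 (adjusted p = 0.526). Except at miR-713 these calls were lost when single libraries were left out, for miR-8096 (2 of 8, adjusted p = 0.0627 without WT cDC1 library 2), miR-5103 (1 of 8, adjusted p = 0.0671 without WT cDC1 library 1), miR-193a (2 of 8, adjusted p = 0.0839 without WT cDC1 library 1) and miR-6516 (6 of 8, adjusted p = 0.183 without KO cDC2 library 2).

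The comparison of KO with WT asks whether the Mx1-Cre deletion of Hdac1 went with a change of these sites. No member was called in cDC2, in cDC1 or over both subsets, and the genotype effect was not called different between subsets at any member. The background was 0.0% of all sites in each of these 4 comparisons. At an unadjusted p of 0.05, limma passed 563 members in cDC2, 543 in cDC1, 813 over both and 288 for the difference between subsets, where 9.1%, 7.79%, 12.3% and 4.61% of all sites passed. The smallest adjusted p among members was 0.121 in cDC2, 0.198 in cDC1 and 0.197 over both. The median size of the difference between genotypes, regardless of sign, was 7.48 points in cDC2 and 7.24 in cDC1. Between subsets it was 11.6 points in KO and 12.3 in WT, also from 2 libraries a group. Over both subsets the genotype difference was 6.03 points, against 11.2 points between subsets over both genotypes. With 2 libraries a group, the differences between genotypes were not separable from the spread between libraries. Without library 1 of WT cDC2, 8 members (0.121%) were called in cDC2, all higher in KO, against 55 of all sites (0.186%), and 2 (0.0302%) over both subsets, against 6 of all sites (0.0202%). At the strongest member near Gatad2a the percentiles were 73.7 and 67.5 in KO cDC2, 69.2 and 78.1 in WT cDC2, 68.4 and 76.1 in KO cDC1, and 87.5 and 81.6 in WT cDC1, and KO minus WT was -3.03 in cDC2 (adjusted p = 0.923) and -12.3 in cDC1 (adjusted p = 0.628). KO and WT libraries overlapped there in cDC2 and did not overlap in cDC1. Neither difference was called, and 2 libraries against 2 often part without any effect.

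The position of the best summit was compared as well, which the choice of members did not use beyond the 250 bp chain. Between subsets 3 members were called, against 24 of 29645 sites (0.081%). The median shift over members was 0 bp to the nearest base, and the median size of the shift was 19.5 bp. At a site near Arhgef3 the best summits lay at 27405700 and 27405609 in KO cDC2, 27405641 and 27405689 in WT cDC2, 27406128 and 27406081 in KO cDC1, and 27406077 and 27406095 in WT cDC1 on chromosome 14. The shift was -435.5 bp (SE 25.5 bp, adjusted p = 0.0115). At Lrrc63 it was 292.75 bp (SE 17.3 bp, adjusted p = 0.0115) and at Xdh, the xanthine dehydrogenase gene, 259.75 bp (SE 23.9 bp, adjusted p = 0.0328). At all 3 the subsets used different ends of the site in every library. The count was 0 without library 1 of KO cDC2 or without any 1 of the 4 cDC1 libraries, and 3, 4 and 1 without library 2 of KO cDC2, library 1 of WT cDC2 and library 2 of WT cDC2. It was also 0 with summits chained at 100 bp and 0 with the best 30868 summits of each library, and 53 with summits chained at 500 bp.

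Sites lay close to both sides of each limit of the choice. The members with the lowest list places lay near Smug1 and Mylk4, at places 61718 and 61714 of 61737 in their weakest library, and the first sites left out lay near C1d and Fbxo31, at places 61746 and 61749. The members nearest to a gene were 1003 bp from Rrh and 1006 bp from Cdh6, and sites 999 bp from Il12b and 994 bp from Ly6e were left out. At the far limit members lay 49909 bp from D16Ertd472e and 49945 bp from Gm46353, and sites 50012 bp from Elovl4 and 50017 bp from Gcnt1 were left out. Of 2070 sites between genes found in 7 libraries, 980 had a summit below the end of the list in the eighth.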

How the data were processed

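ATAC-seq peak summits of 8 libraries were used, 1 list per library. Per the submitters' processing notes, the authors used Bowtie2, SAMtools and MACS2 with GRCm38 (mm10), without versions. Peak calling settings and pooling are not given in the sources used here. The deposited score of each summit was taken as a −log10 q-value, as MACS2 writes it. This unit comes from the range of the values, not from a header. The lists hold no counts, so depth is unknown and no interval for counting error is given. A higher score also comes with deeper sequencing, so scores were used only as ranks within lists of 61737 summits per library.

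Sites, percentiles and gene distances were computed with Python 3.11.15 and pandas 2.3.3 against the mm10 RefSeq gene table. Percentiles were compared with limma 3.58.1 in R 4.3.3, using 4 group means, a variance trend, all 29645 sites with a summit in all 8 libraries, and Benjamini-Hochberg adjustment at 0.05. Each SE is limma's. The fit was tested on simulated data. Sites named in the text are the 6 with the highest mean percentile, the 12 most raised and the 12 most lowered in cDC2 among called members whose subsets did not overlap, all members near dendritic cell identity genes and factors, and the strongest member of each other gene list, some of which are not reported here. The members and lists were chosen with earlier results of these data known. Alternatives changed the list length, chaining distance, distance limits, ranking scale, variance model and libraries, with a replicate block as a further fit. No genome was used here, so sequences and motifs come only from the RefSeq promoter and microRNA tables, a choice made after the files were seen. Members on chromosome 18 are given without sequence.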

Additional observations from a re-analysis of the deposited data

Results flagged for a closer look

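In 14 of 204 sets of 4 libraries of 1 subset (6.86%), 1 library stood apart from the other 3 by Dixon's gap test, which chance alone does in about 1 of 20 sets. Library 1 of WT cDC2 stood apart at 4 sites. It had a percentile of 57.3 at the Mon2 site near let-7i, against 76.9 to 80.8 in the other cDC2 libraries, 71.1 at Azin1, against 73.4 to 73.6, 69.5 at the called Batf3 site, against 82.8 to 84.4, and 91.0 at the stronger miR-155 site near Mrpl39, against 77.9 to 79.8. Library 2 of WT cDC2 had 6.87 at Ankrd50, against 0.523 to 1.40, and library 2 of KO cDC2 had 86.2 at Tpd52, against 93.5 to 94.2.

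Among cDC1 libraries, library 2 of KO cDC1 had 96031 deposited summits, against 74963 to 77585, and a percentile of 37.7 at the called Notch2 site, against 7.33 to 9.53. Library 1 of KO cDC1 had 99.5 at Fpr2, against 99.8 to 99.9, 70.2 at the Kifc5b site over the Gm17382 start, against 65.0 to 65.6, and 18.2 at the called Pmaip1 site, against 13.0 to 13.5. Library 1 of WT cDC1 had 24.1 at Snx22, against 53.8 to 55.8, and 77.7 at the Mon2 site, against 73.1 to 73.7. Library 2 of WT cDC1 had 99.4 at Gnpda1, against 97.8 to 98.0.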

How the results depend on the processing

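The number of members was 6615 and lay between 5162 and 8077 with other chaining distances, all deposited summits, a 5 kb minimum distance or 1 library left out (6758 to 6931), but was 2653 with the best 30868 summits of each list and 10666 with no minimum distance. Summits tied at the list end, an alternative added after seeing the data, gave 6616 members when kept and 6596 when left out. Calls between cDC2 and cDC1 numbered 1832 and lay between 1510 and 2144 under the other scales, chaining distances, variance model and replicate block, 691 (430 higher, 261 lower) with that shorter list, and 1140 to 1579 without single libraries. Ranking within the location class, also added after seeing the data, gave 1755. KO against WT stayed at 0 calls in cDC1 and for the difference between subsets in every alternative. In cDC2 it gave 0 to 8 calls without single libraries, 2 with quantile-normalized log2 scores and 1 with ranks within the location class. Over both subsets it gave 0 to 2 calls without single libraries, 1 with normal scores and 9 with quantile-normalized log2 scores. Summit position gave 0 calls with the replicate block, 0 with 100 bp chaining, 0 with the shorter list, 53 with 500 bp chaining and 0 to 4 without single libraries. Where a library was left out, the lone library of its group was assumed to vary like the other groups. The causes were not tested.

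Of 81 called named sites, 52 kept the call in every alternative in which they were matched and 29 lost it in at least 1. Sign changed only at sites that were not called, Csf3r (-3.56 to 1.08 without single libraries, above 0 without library 1 of KO cDC2 and, at 0.894, without library 1 of KO cDC1), Mon2 (-7.28 to 4.44, above 0 without library 1 of WT cDC2) and Zswim4 (-1.85 to 16.8, below 0 without library 1 of WT cDC1).

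The labels number the libraries 1 and 2 in each group. Deviations of same-numbered libraries correlated at 0.192 between KO cDC2 and KO cDC1 and at 0.0559 between WT cDC2 and WT cDC1. They correlated at 0.0396 between KO and WT cDC2 and at -0.00574 between KO and WT cDC1. The numbers were not taken as pairs. The value in KO was the largest, and whether libraries of 1 number share a source there was not tested. With the replicate block 2144 members were called between subsets.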
